A study of Mus musculus with 8 samples.

Results

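The hedgehog pathway was read in mouse skin through 8 genes: the ligand Shh, the receptor Ptch1, the signal transducer Smo, the ligand trap Hhip, the pathway inhibitor Sufu and the transcription factors Gli1, Gli2 and Gli3. Their probes were found by matching the RefSeq accession of every array probe to the gene symbols, which gave 11 probes for these 8 of the 20128 genes that had a probe. The series compared skin of C57BL/6N mice carrying a Cchcr1 mutation with wild type skin of the same strain, in a model of patchy hair loss made by genome editing. The groups were skin with hair loss from Cchcr1 mutants (2 samples), normal skin from Cchcr1 mutants (4 samples) and normal skin from wild type mice (2 samples), with 1 single-colour Agilent array per sample. The labels give neither age nor sex, allele, body site or hair cycle stage, and do not say which samples share an animal.

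The sample titles carry a number that the labels do not explain. Hair loss replicate 1 and mutant normal skin replicates 1 and 2 are titled Mutant097, hair loss replicate 2 and mutant normal skin replicates 3 and 4 Mutant113, and both wild type samples Wild001. In comparisons with wild type, title number and genotype cannot be told apart, and p-values measure the spread between these samples, which may be partly technical. Xist was above background on the 3 Mutant113 arrays alone and the Y-linked gene Ddx3y on the other 5 arrays. By these genes, Mutant113 differed in sex from Mutant097 and from Wild001. Row 1 of the slide held the hair loss arrays and the normal skin of Mutant097, row 2 the normal skin of Mutant113 and the wild type. All 8 skin markers (such as Krt14 of basal keratinocytes and Col1a1 of the dermis) were above background on all 8 arrays. The edited gene was read by 1 probe, which lay between -0.07 and 0.49 on the 8 arrays (mutant normal skin minus wild type, limma adjusted p = 0.688), and whether that probe covers the edited site is not given in the sources used here.

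Hedgehog proteins reach cells that carry Ptch1, which otherwise holds Smo inactive. Once Smo is released, signalling through the primary cilium frees the GLI factors from Sufu, and the active pathway raises transcription of Gli1, Ptch1 and Hhip, so that these genes serve as its readouts. In hair follicles, Shh comes from the epithelial matrix and hair germ, the receiving cells include epithelium and dermal papilla, and signalling drives the resting follicle into its growth phase, anagen.

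Upstream sequence was available for 6 of the members, from RefSeq's mouse assembly GRCm38.p6, as the 250 bases before the gene start. Those of Hhip and Gli2, which stood with Gli1 above the wild type on every mutant array, and of Ptch1, which did not, are shown 5′ to 3′ on the strand of the gene. Capitals mark the 6-letter core of the GLI binding site, CCACCC or its reverse complement GGGTGG.
Hhip: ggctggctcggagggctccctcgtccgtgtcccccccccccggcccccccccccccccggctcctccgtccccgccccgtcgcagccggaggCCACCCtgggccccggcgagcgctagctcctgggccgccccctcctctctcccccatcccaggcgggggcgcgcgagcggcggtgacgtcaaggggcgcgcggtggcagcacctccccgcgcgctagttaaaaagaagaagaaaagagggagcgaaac
Gli2: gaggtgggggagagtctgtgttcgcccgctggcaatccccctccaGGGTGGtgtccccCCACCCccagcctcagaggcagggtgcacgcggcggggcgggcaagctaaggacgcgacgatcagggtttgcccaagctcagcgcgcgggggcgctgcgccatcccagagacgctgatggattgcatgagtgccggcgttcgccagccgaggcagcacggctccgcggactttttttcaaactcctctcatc
Ptch1: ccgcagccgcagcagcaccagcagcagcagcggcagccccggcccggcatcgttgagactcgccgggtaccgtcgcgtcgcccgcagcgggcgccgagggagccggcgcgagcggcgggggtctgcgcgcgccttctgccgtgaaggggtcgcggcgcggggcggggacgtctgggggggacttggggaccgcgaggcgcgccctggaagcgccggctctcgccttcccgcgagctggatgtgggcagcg
The Hhip stretch is chr8:80058009-80058258 (minus strand), the Gli2 stretch chr1:119053620-119053869 (minus strand) and the Ptch1 stretch chr13:63565736-63565985 (minus strand). The core was found once in Hhip and in 2 places in Gli2, and neither orientation of these letters was in the Ptch1 window. Of the other 3 members with a sequence, Smo and Gli3 held the core once each and Sufu did not. The same search found it in 28.1% of the 32851 promoters of the table, so its presence in 4 of 6 is a description of these windows and not a site. The longer GLI consensus GACCACCCA (or TGGGTGGTC) was in 0 of the 6 windows and in 0.225% of all promoters.

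Levels are log2 intensities from which the array's own 75th percentile was subtracted, so that 0 is that percentile, and levels of different probes are not compared with each other. Tests covered the probes that the scanner software marked as well above background on 2 or more of the 8 arrays. This held for 8 of the 11 member probes, representing 7 of the 8 genes (all but Shh), and for 30417 probes in all. Hhip and the tested Sufu probe passed this filter through the mutant arrays alone. A probe was called when its adjusted p in limma was under 0.05. The small number of arrays per group limits the precision of every comparison. On each array, 25424 to 30205 probes were well above background.

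**Figure D1:**
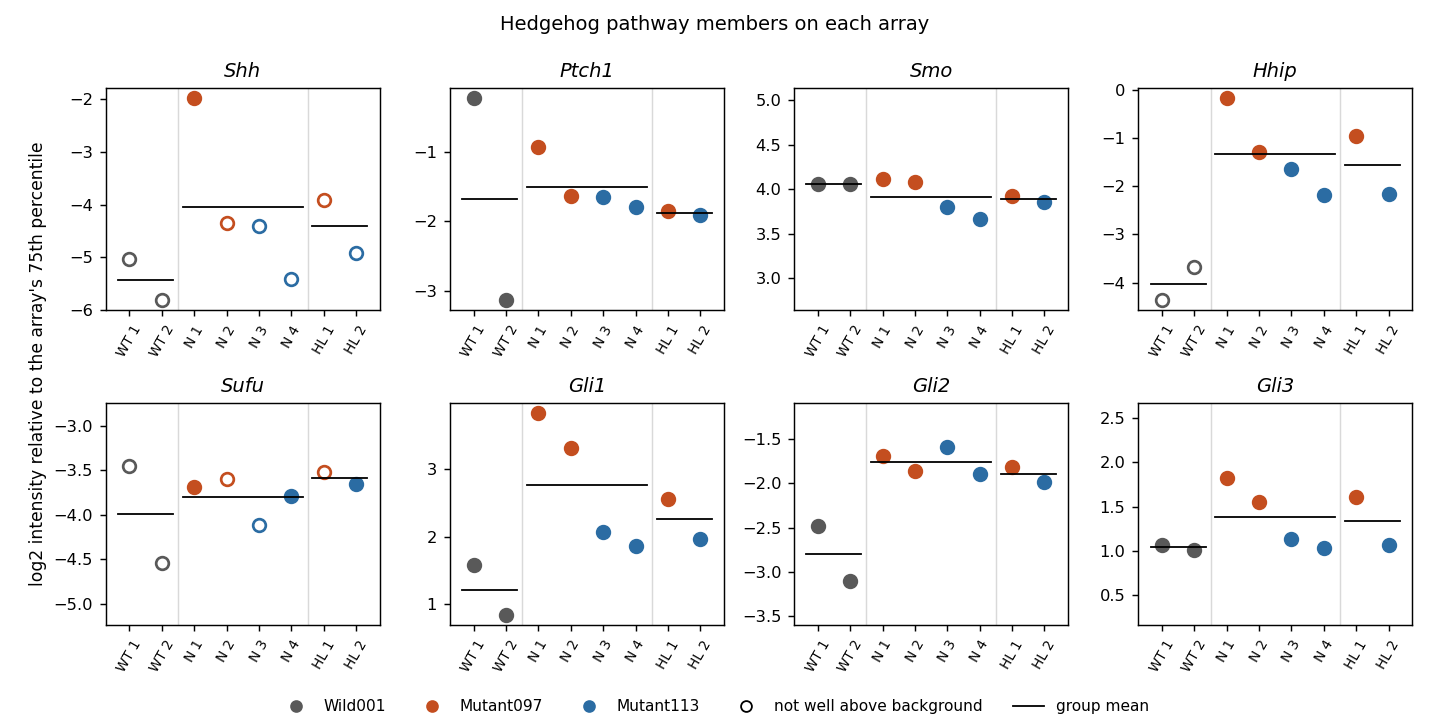
Level of each member (y axis, log2 intensity relative to the array's 75th percentile, with a different range in each panel) on the 8 arrays (x axis: WT wild type, N mutant normal skin, HL hair loss, with replicate numbers). Open points are not well above background and lines are group means; Gli1, Gli2 and Hhip lie above both wild type arrays on all 6 mutant arrays, and Shh has its only filled point at -1.98 in mutant normal skin replicate 1.

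Shh, the ligand that starts follicle growth, was detected on 1 of 8 arrays. Its probe was printed in 10 spots, and in mutant normal skin replicate 1 all 10 were well above background, with a median intensity of 41.5. On the other 7 arrays 0 spots were well above background and the median intensity ran from 2.58 to 9.04. On the log2 scale the level was -1.98 in that sample against values at background of -4.36, -4.41 and -5.41 in the other mutant normal skin samples, -3.92 and -4.91 in hair loss and -5.04 and -5.82 in wild type. The mutant group that held the detected sample thus also held 3 samples without it. Shh was not tested. No lower bound of a fold could be given, because the group mean lay below the level taken as the detection floor of the arrays. The sample with Shh was also the only one with Lrp2, an endocytic hedgehog receptor, Gpr161, a ciliary inhibitor of the pathway, and the second Sufu probe above background. Over the whole array 2375 probes were above background on 1 array alone, 197 of them on this one and 115 to 707 on each of the others.

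The other ligands and the genes that release them gave no called difference. Ihh was above background only in mutant normal skin replicate 4, and Dhh, the ligand made by Schwann cells, on all 8 arrays at -1.77 to -0.25. Of the 10 genes of this list, which includes Shh, 6 were tested. In mutant normal skin minus wild type 3 were higher and 3 lower, 0 were called and the median log2 difference was -0.09, against -0.04 over all probes tested. Disp1, which exports lipid-modified ligand, had levels of -2.95 and -1.65 in hair loss and -2.25 to -0.94 in mutant normal skin, while wild type gave -0.34 and -0.64. Its difference of -1.81 (SE 0.50) between hair loss and wild type did not pass (limma adjusted p = 0.0963), although all 6 mutant samples lay below both wild type samples. Scube2 and Hhat, which act in ligand release and acylation, differed by -0.48 and 0.23 between mutant normal skin and wild type (adjusted p = 0.283 and 0.634).

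Ptch1, the receptor and a readout of signalling, did not separate the genotypes. The wild type samples gave -0.24 and -3.13, which lay above and below all 6 mutant samples. Mutant normal skin gave -0.93, -1.64, -1.65 and -1.80, and hair loss -1.85 and -1.91. Both hair loss samples were therefore below the 4 normal skin samples of the mutants, by a margin far smaller than the gap between the wild type samples. Ptch1 was 1 of the 8 member probes with that order, which 6.68% of all probes tested had. The difference between mutant normal skin and wild type was 0.18 (95% confidence interval -1.41 to 1.77, adjusted p = 0.915) and that between hair loss and mutant normal skin was -0.37 (-1.97 to 1.22, adjusted p = 0.999). The first became -0.01 without mutant normal skin replicate 1 and -1.27 without wild type replicate 2, and became 1.62 without wild type replicate 1.

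Hhip, a membrane-bound trap that binds ligand and is itself switched on by the pathway, was detected on all 6 mutant arrays and on neither wild type array. Mutant normal skin had levels of -0.18, -1.29, -1.64 and -2.19, and hair loss of -0.95 and -2.15, while wild type gave -4.37 and -3.68, not well above background. The groups of the 2 genotypes did not overlap, and hair loss lay within the range of mutant normal skin. The detection floor of a wild type array was taken as the lowest level among its probes well above background, or Hhip's own level where higher. Against it, Hhip was higher by 4.05-fold in normal skin of the mutants and 3.46-fold in hair loss. Probes not well above background can exceed that lowest level, as Hhip did in wild type replicate 2 (-3.68 against -3.74). The bounds are therefore approximate. The bound ran from 3.11 to 5.12 in the first case and from 2.28 to 5.25 in the second when single samples were left out; without hair loss replicate 1 the second was 2.28, and without hair loss replicate 2 it was 5.25. The fitted differences, which rest on wild type values at background, were 2.70 (SE 0.57, limma adjusted p = 0.098) and 2.47 (SE 0.66, adjusted p = 0.0894), neither past the threshold. With the slide row as a block they were 2.11 and 1.29 (adjusted p = 0.106 and 0.38). The row term in that fit is the gap between Mutant097 and Mutant113 in normal skin, so it cannot be told apart from title number. With normexp background correction the fitted differences were 0.54 (adjusted p = 0.465) and 0.37 (adjusted p = 0.53). This correction was run with an added offset of 50 in intensity, which by itself shrinks log2 differences of dim probes such as this one. A second Hhip probe, A_51_P416822, was not well above background on any array.

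Smo, the transducer held in check by Ptch1, was read by probes that varied to different degrees. Its brighter probe, A_51_P258766, gave 4.06 and 4.05 in wild type, whereas mutant normal skin gave 4.11, 4.08, 3.80 and 3.66, and hair loss 3.92 and 3.85. The difference between mutant normal skin and wild type was -0.14 (95% confidence interval -0.57 to 0.29, adjusted p = 0.727). The other Smo probe, A_55_P2121484, gave 1.68 and 0.79 in wild type, 0.14 to 0.94 in mutant normal skin and 0.65 and 0.44 in hair loss, a difference of -0.68 (-1.38 to 0.03, adjusted p = 0.306). Sufu, which keeps the GLI factors inactive, was near background: its brighter probe was well above it in mutant normal skin replicates 1 and 4 and hair loss replicate 2 alone, at -3.69, -3.79 and -3.66. Its levels in the other samples, from -4.54 to -3.45, spanned these values, and no difference was detectable.

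Gli1, the transcriptional activator whose own level is the usual measure of hedgehog signalling, was above background on all arrays. Mutant normal skin gave 3.84, 3.31, 2.06 and 1.86, hair loss 2.56 and 1.97, and wild type 1.58 and 0.83. All 6 mutant samples lay above both wild type samples, the lowest of them at 1.86 and the higher wild type sample at 1.58. The group means were 2.77 ± 0.96 (SD, n = 4) in mutant normal skin, 2.26 ± 0.42 (n = 2) in hair loss and 1.21 ± 0.53 (n = 2) in wild type. No pair of groups differed beyond the test: the difference was 1.56 (SE 0.58, limma adjusted p = 0.239) between mutant normal skin and wild type, 1.06 (SE 0.67, adjusted p = 0.356) between hair loss and wild type, and -0.50 (SE 0.58, adjusted p = 0.999) for hair loss minus mutant normal skin. This last difference has a 95% confidence interval of -1.84 to 0.84, so the arrays could not show whether Gli1 differs between skin with and without hair loss by less than that. With the slide row as a block, the difference from wild type was 0.75 (adjusted p = 0.318) for mutant normal skin and -0.56 (adjusted p = 0.552) for hair loss. The row term in that fit is the gap between Mutant097 and Mutant113 in normal skin, which also differ in title number and sex. That gap was taken off both hair loss arrays, including replicate 2 of Mutant113, so the hair loss value cannot separate row from title number.

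Gli2, the main activator formed when the pathway is on, was low, with all 6 mutant samples above both wild type samples. It lay at -1.69, -1.86, -1.59 and -1.90 in mutant normal skin and at -1.81 and -1.99 in hair loss, and at -2.49 and -3.11 in wild type. The difference from wild type was 1.03 (SE 0.22, limma adjusted p = 0.0958) for mutant normal skin, a linear ratio of 2.05, and 0.90 (SE 0.25, adjusted p = 0.096) for hair loss. With quantile normalization the first passed the threshold (1.14, adjusted p = 0.0449), the only call of a member probe in the 3 group comparisons under any alternative tried. With normexp, whose offset shrinks the differences of dim probes, it was 0.13 (adjusted p = 0.716). Gli3, which mainly gives rise to the repressor form, lay at 1.82, 1.55, 1.14 and 1.04 in mutant normal skin, 1.61 and 1.06 in hair loss and 1.07 and 1.01 in wild type, and the genotypes overlapped. Its difference between mutant normal skin and wild type was 0.35 (SE 0.27, adjusted p = 0.542).

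**Figure D2:**
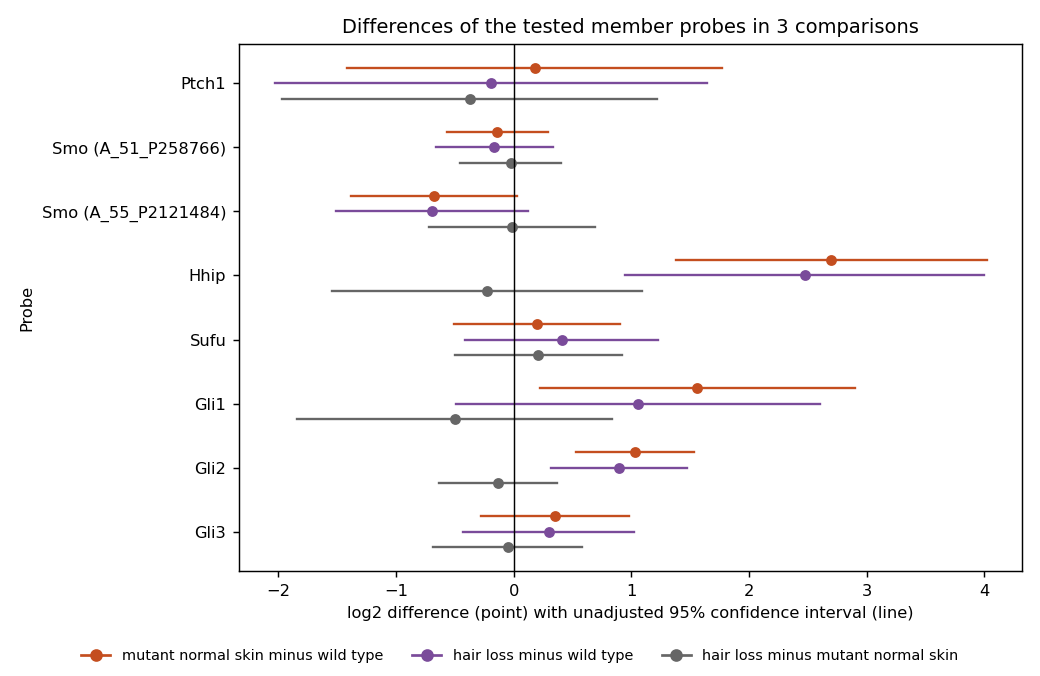
Log2 difference (x axis, point) of the 8 tested member probes (y axis) in the 3 group comparisons, with 95% confidence intervals that are not adjusted for the number of probes (lines). For mutant normal skin minus wild type the intervals of Hhip, Gli1 and Gli2 lie to the right of 0, around 2.70, 1.56 and 1.03. For hair loss minus wild type those of Hhip and Gli2 do, while every interval of hair loss minus mutant normal skin includes 0.

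In all, 0 of the 8 member probes were called in any of the 3 group comparisons, where limma called 211 (0.694%) of 30417 probes between mutant normal skin and wild type, 432 (1.42%) between hair loss and wild type and 0 (0%) for hair loss minus mutant normal skin. The last comparison had 1582 probes at an unadjusted p under 0.05. The members at an unadjusted p under 0.05 numbered 3, 2 and 0 in these comparisons. All 6 mutant samples lay above both wild type samples for 3 of the 8 probes (Gli1, Gli2 and Hhip, the last having passed the filter through the mutants alone), an order that 11.8% of all probes had. The opposite order was seen for 0 member probes and 12.5% of all probes. The comparisons with wild type share the same 2 control samples. In bulk skin, fewer cells of a type and less RNA per cell cannot be told apart.

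The members also stood apart by title number, which between Mutant097 and Mutant113 cannot be told apart from the sex read from Xist and Ddx3y. The 3 Mutant097 samples (2 of normal skin and 1 of hair loss) lay above the 3 Mutant113 samples for 4 of the 8 probes: Gli1 (2.56 to 3.84 against 1.86 to 2.06), Gli3 (1.55 to 1.82 against 1.04 to 1.14), Hhip (-1.29 to -0.18 against -2.19 to -1.64) and the brighter Smo probe (3.92 to 4.11 against 3.66 to 3.85). Of all probes, 15.7% had this order and 9.77% the opposite, which 0 member probes had. The gap was widest for Gli1, whose lowest Mutant097 value came from the hair loss sample. Because of this pattern, contrasts between title numbers were added after the values were seen, in a model whose spread comes from pairs of samples with the same number, which may share an animal.

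In normal skin, Mutant097 was in row 1 of the slide and Mutant113 and wild type in row 2. Slide row therefore cannot be told apart from the contrasts of Mutant097 in this model. Gli1 rose in the normal skin of Mutant097 over wild type, by 2.37 (SE 0.32, limma adjusted p = 0.0485), a linear ratio of 5.16. It was 1 of 8 member probes called, where 0.999% of all probes were. The call lay just inside the threshold and was lost without any 1 of the 6 normal skin samples (adjusted p = 0.0619 to 0.155), with quantile normalization (0.0606), with another centring (0.0552) and without the filter (0.113). Hhip, at background in wild type, was 6.10-fold higher by the approximate bound. Its fitted difference of 3.29, which rests on those background values, was not called (adjusted p = 0.0501). In the normal skin of Mutant113 the fitted differences from wild type were 0.75 for Gli1 (SE 0.32, adjusted p = 0.283) and 2.11 for Hhip (adjusted p = 0.0824). The approximate bound for Hhip was 2.69-fold, and 0 member probes were called, against 3.26% of all probes. The direct contrast of Mutant097 with Mutant113 in normal skin gave 1.61 for Gli1 (SE 0.32, adjusted p = 0.132), 1.18 for Hhip (SE 0.45, adjusted p = 0.30) and 0.60 for Gli3 (SE 0.18, adjusted p = 0.233), and again called 0 members, against 0.266% of all probes. Gli2 differed between the numbers by -0.03 (SE 0.27) and from wild type by 1.02 in Mutant097 and 1.05 in Mutant113.

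Hair loss was compared with normal skin within each number by 1 lesional sample each. For Gli1, hair loss was 1.01 lower than normal skin in Mutant097 (2.56 against 3.84 and 3.31), and in Mutant113 it lay between the normal skin values (1.97 against 2.06 and 1.86). The difference between these lesion effects was 1.02 (SE 0.56, adjusted p = 0.649), and 0 member probes were called for it, as were 0% of all probes, with 2889 of them at an unadjusted p under 0.05. Hhip in hair loss was 0.22 below the mean of normal skin in Mutant097 and 0.24 below it in Mutant113, inside the range of normal skin each time.

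The wider set of hedgehog target genes gave no called difference between mutant normal skin and wild type. Of 16 genes on the list, which includes Gli1, Ptch1 and Hhip, 15 were tested; in mutant normal skin minus wild type 10 were higher and 5 lower, 0 were called and the median log2 difference was 0.31, against -0.04 over all probes. All 6 mutant samples lay above both wild type samples for 6 of the 15 (Gli1, Hhip, Mycn, Foxm1, Foxe1 and Sox9), against 11.8% of all probes, and below them for 1 (Igfbp6), against 12.5%. These genes were named after their values were seen, and Foxe1, like Hhip, was above background in mutants alone. The 3 Mutant097 samples lay above the 3 Mutant113 samples for 6 of the 15 (Gli1, Hhip, Mycn, Foxm1, Ccnd1 and Nkx2-2), against 15.7% of all probes, and the opposite order was seen for 0, against 9.77%.

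Mycn, a growth-promoting transcription factor, gave 1.14, 0.09, -0.28 and -0.67 in mutant normal skin, 0.57 and -0.28 in hair loss and -2.07 and -3.11 in wild type. Its differences from wild type, 2.65 (SE 0.53, adjusted p = 0.0874) and 2.73 (SE 0.61, adjusted p = 0.0696), missed the threshold. Foxm1, which drives entry into mitosis, lay at 0.39, 0.03, -0.72 and -0.95 in mutant normal skin, 0.08 and -0.43 in hair loss and -1.26 and -1.53 in wild type. It rose in the normal skin of Mutant097 over wild type by 1.60 (SE 0.22, adjusted p = 0.0495), the only gene of the hedgehog lists called there besides Gli1. The D cyclins moved little: Ccnd1 and Ccnd2 differed by 0.48 and -0.28 between mutant normal skin and wild type (adjusted p = 0.504 and 0.517). Igfbp6, a binding protein of insulin-like growth factors, was lower in hair loss than in wild type by 1.65 on the log2 scale (SE 0.34, adjusted p = 0.0599).

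**Figure D3:**
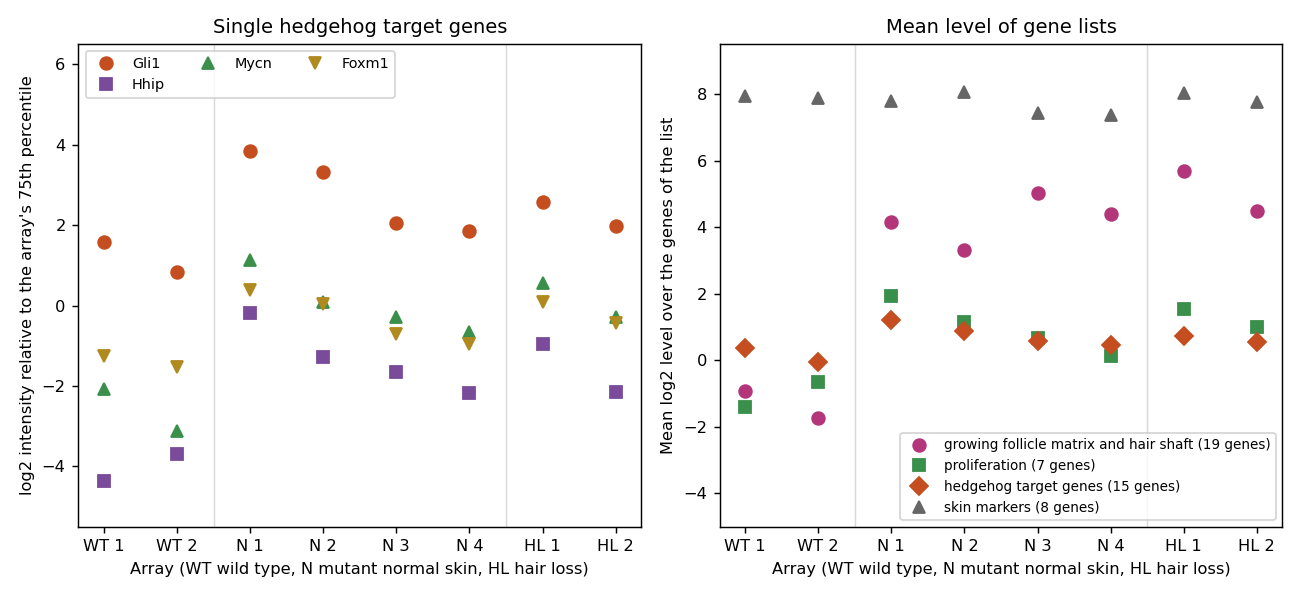
Left, level (y axis, log2 intensity relative to the array's 75th percentile) of 4 target genes on each array (x axis); right, mean level of 4 gene lists on the same arrays. The 4 target genes and the proliferation list have their highest value in mutant normal skin replicate 1, while the hair shaft list peaks at 5.68 in hair loss replicate 1.

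The lists of receptors, transducers and the cilium, through which the pathway acts, hold Hhip and the GLI factors and gave no called gene in the 3 group comparisons. Of the 7 receptors, co-receptors and ligand traps, 3 were higher and 4 lower in mutant normal skin than in wild type, with a median of -0.14 and 0 called. The co-receptors Boc, Cdon and Gas1 differed by -0.22, -0.31 and -0.27 (adjusted p = 0.588, 0.613 and 0.674), and Gpc3, a glypican that competes for ligand, by 0.81 (adjusted p = 0.162). Among 21 tested transducers 11 were higher and 10 lower, with a median of 0.09 and 0 called; Kif7, the ciliary motor that regulates the GLI factors, gave 1.02 (SE 0.23, adjusted p = 0.116) and was named after its value was seen. The kinases and ligase parts that process GLI proteins, such as Gsk3b (0.09), Prkacb (-0.34), Spop (0.18) and Fbxw11 (0.23), had small differences in either direction (adjusted p = 0.795, 0.449, 0.63 and 0.517). The 16 primary cilium genes, 9 higher and 7 lower, had a median of 0.03 and 0 called. In hair loss minus mutant normal skin, 1 of the 7 receptors and traps was higher and 6 lower (median -0.20), 11 of the 21 transducers were higher and 10 lower (median 0.0023), and 5 of the 16 cilium genes were higher and 11 lower (median -0.20), against a median of -0.0054 over all probes.

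Zic1, a zinc finger partner of the GLI factors chosen after its values were seen, did not follow the groups. Its levels were 2.51, -4.21, 1.34 and -6.27 in mutant normal skin, 2.70 and -3.32 in wild type and 0.72 and 2.16 in hair loss. The 3 low samples are the ones whose titles carry the letter A, and the 5 high samples carry B or S, letters that the labels do not explain. Differences of Zic1 between groups did not pass (adjusted p = 0.749 to 0.999).

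The members showed a smaller offset between these letters. In normal skin, the B sample lay above the A sample of the same title number in all 3 numbers for 5 of the 8 member probes, an order that 10.5% of all probes had, and the opposite order was seen for 0 member probes and 12.2% of all probes. Gli1 was higher in B by 0.52 in Mutant097, 0.20 in Mutant113 and 0.75 in Wild001, and Gli2 by 0.17, 0.31 and 0.62. Ptch1 was higher in B by 0.71, 0.14 and 2.89, Gli3 by 0.27, 0.10 and 0.06, and the brighter Smo probe by 0.03, 0.14 and 0.0029. Hhip was higher in B in the mutants, by 1.11 and 0.54, and lower by 0.69 in wild type, where it was at background. With the title number as a block, B minus A was 0.49 (SE 0.18, limma adjusted p = 0.983) for Gli1, and 0 member probes and 0% of all probes were called, with 1523 probes at an unadjusted p under 0.05. This comparison was added after the values were seen.

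**Figure D4:**
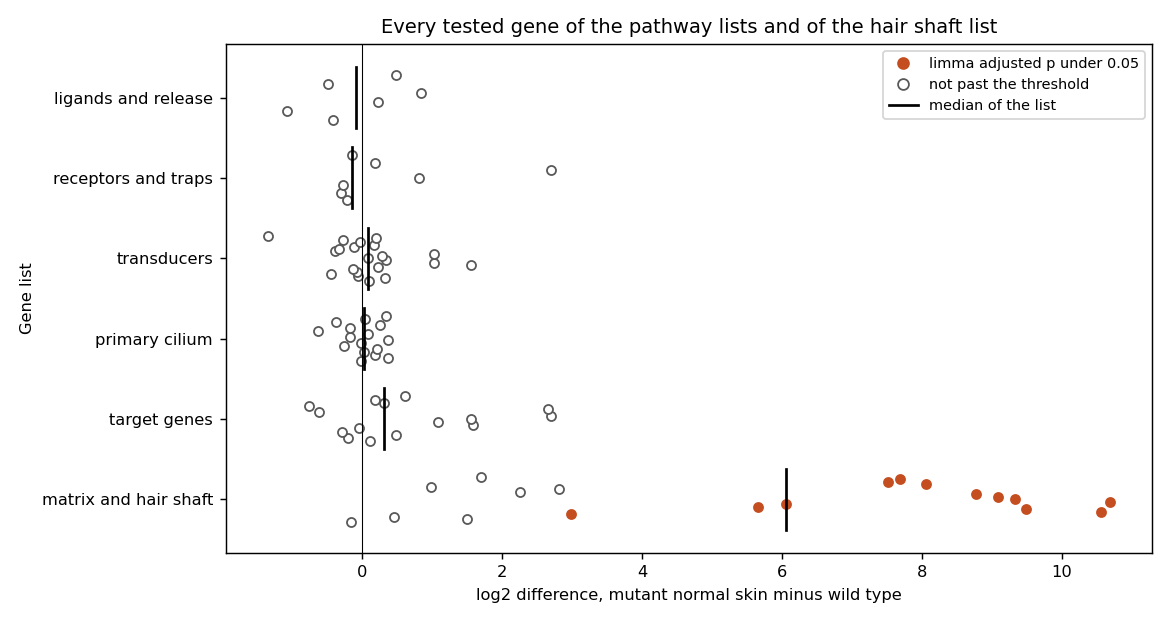
Log2 difference between mutant normal skin and wild type (x axis) for every tested gene of 5 pathway lists and of the hair shaft list (y axis). Filled points have a limma adjusted p under 0.05 and bars are medians; the pathway lists hold 0 filled points, against 12 of 19 for the hair shaft list, with medians of 0.31 for the target genes and 6.06 for the hair shaft genes.

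The genes of the growing follicle differed far more than the hedgehog genes. In the list of matrix and hair shaft genes, 12 of 19 were called higher in mutant normal skin than in wild type and 13 of 19 in hair loss, against 0.694% and 1.42% of all probes, with medians of 6.06 and 7.64. Over all probes, the calls in mutant normal skin fell to 0 with 1 mean per title number or without wild type replicate 2, and to 10 without wild type replicate 1. Krt71, a keratin of the inner root sheath, rose by 9.09 (SE 0.79, adjusted p = 0.00761) and Hoxc13, a regulator of hair keratins, by 2.98 (SE 0.48, adjusted p = 0.0475). The mean level of the list was 4.14, 3.32, 5.04 and 4.39 in mutant normal skin, 5.68 and 4.48 in hair loss and -0.92 and -1.74 in wild type. Wild type was lowest, as for Gli1 and Hhip. Between the title numbers the order was turned: normal skin of Mutant113 was above that of Mutant097 for the hair shaft list and below it for Gli1, Hhip and Mycn in the group mean. The proliferation list had the order of Gli1 in mutant normal skin, with means of 1.92, 1.15, 0.67 and 0.12 in mutant normal skin, 1.54 and 0.999 in hair loss and -1.40 and -0.65 in wild type. All 7 tested proliferation genes were higher in mutant normal skin than in wild type with 0 called, and Mki67 rose in the normal skin of Mutant097 over wild type by 2.54 (SE 0.32, adjusted p = 0.0419). The part of follicle and cycling cells in the values of Gli1 and Hhip was not tested.

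Lists of other skin cells moved less or in other ways. The mean level of the dermal papilla list, the mesenchymal cells that receive Shh, ran from 0.38 to 0.67 in the mutants and was 0.52 and 0.17 in wild type, with 0 of 13 genes called between mutant normal skin and wild type. The list of the resting follicle and bulge ran from 2.63 to 3.35 in the mutants and was 3.05 and 3.09 in wild type. Melanocyte genes ran from -0.11 to 1.82 against -0.11 and -1.08, and nerve and Schwann cell genes from -0.21 to 0.44 against 0.94 and 0.74. Skeletal muscle genes, which mark the muscle layer under the skin, lay at 5.41 and 5.64 in the normal skin of Mutant113, 5.53 and 5.64 in wild type, 4.57 and 3.58 in normal skin samples of Mutant097 and 3.98 and 2.69 in hair loss. All 3 samples of Mutant097, which had the highest Gli1, and hair loss replicate 2, which did not, lay below the rest. These lower samples are the arrays of slide row 1 and the rest those of row 2, so slide row cannot be told apart from this split. The part of muscle in the Gli1 values was not tested. Fat cell genes ran from 3.26 to 3.98 in the mutants, above the 3.07 and 3.12 of wild type. T cell and macrophage genes ran from 1.41 to 2.06, below the 2.13 and 2.24 of wild type. Of these 2 lists, 0 genes were called between mutant normal skin and wild type. Sebaceous gland genes lay between 0.86 and 1.74 over all samples.

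Of 14772 other genes with a tested probe, 5 had the profile most like that of Gli1 over the 8 arrays, by the root mean square difference of levels centred on their own mean: Mtmr7 (0.254), Gm8884 (0.273), Wif1 (0.294), Pimreg (0.296) and Fras1 (0.301). Wif1, a secreted WNT inhibitor, lay at 2.45, 1.80, 1.103 and 1.12 in mutant normal skin, 1.51 and 1.13 in hair loss and 0.72 and 0.22 in wild type. Fras1, a basement membrane protein of the skin, gave -0.07, -0.84, -1.43 and -1.92, then -0.65 and -1.59, then -2.21 and -3.30 in the same order. Among the members, Gli3 ranked 322nd (0.639), Gli2 337th (0.643) and Ptch1 6202nd (0.905) in likeness to Gli1. For Shh, the genes nearest by the same measure were Cyp27b1 (0.352), Cntfr (0.459), Esco2 (0.499), Fbn2 (0.501) and Fras1 (0.514), followed by Gli1 (0.52), but 7 of the 8 Shh values were at background and their order carries no level.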

How the data were processed

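Cy3-labelled cRNA of 8 skin samples was hybridised to Agilent mouse arrays, per the labels' protocols, all on 1 slide, per the file headers. Spot intensity values were deposited by the authors as Agilent Feature Extraction 11.5.1.1 gave them, with its background correction, per the submitters' processing notes and the file headers. The deposited log2 matrix equals the log2 of these intensities within 0.01 of 1 constant per array for all 55603 probes kept.

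Here, log2 intensities were averaged over the spots of a probe, after outlier and control spots were left out, and scaled by the 75th percentile of their array (83.1 to 211.2 in intensity). limma 3.58.1 (R 4.3.3) fitted the 3 groups to 8 arrays, two-sided, with Benjamini-Hochberg adjustment over 30417 probes; the code was tested on simulated data. A lower bound of a fold uses, per array of the dim group, the higher of the lowest level among probes well above background and the dim probe's own level. Gene symbols come from RefSeq (GRCm38.p6). The file headers name mm9, so no probe coordinates are given.

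All members were described through every probe, the one with the highest mean standing for its gene. Other pathway genes were named where called in a comparison, with up to 4 of the highest mean per list, or as marked in the text. The members and lists were chosen with earlier results of these data known, and 1 gene of the lists is not reported here and was left out of their counts. Alternatives covered background correction, normalization, centring, filter, variance model, left-out samples, slide row and title number; normexp (offset 50) used the median signal.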

Additional observations from a re-analysis of the deposited data

Results flagged for a closer look

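The brighter Smo probe, A_51_P258766, differed in the sign of its lesion effect between the title numbers. The other Smo probe, A_55_P2121484, had the opposite signs, with 0.10 in Mutant097 and -0.14 in Mutant113. For the brighter probe, hair loss lay below both normal skin samples in Mutant097 (3.92 against 4.11 and 4.08) and above both in Mutant113 (3.85 against 3.80 and 3.66). The lesion effects differed by 0.2889 (SE 0.28, limma adjusted p = 0.811), and each number had 1 hair loss sample.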

How the results depend on the processing

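Of the member differences under all alternatives, 637 kept direction and side of the threshold, 27 changed sign, 7 gained and 9 lost a call. Called probes between mutant normal skin and wild type numbered 128 without the filter, 0 with 1 mean per title number, 856 with the slide row as a block and 0 to 195 with single samples left out (0 without wild type replicate 2, 10 without wild type replicate 1); quantile normalization called 1 member. Between hair loss and wild type they numbered 183, 0, 1332 and 0 to 767 under the same settings (0 without wild type replicate 2), 839 with a filter on all arrays of a group, 1028 with trended robust variance and 706 with only these groups. Between hair loss and mutant normal skin they numbered 0 to 10 with samples left out, and the title number as a replicate block left 0 probes and 0 members called. The contrasts between numbers and letters were chosen after seeing the data. Mutant097 minus Mutant113 called 465 probes and 1 member (Gli1) with normexp, 146 with quantile normalization, 19 without the filter, 373 with trended robust variance and 6 to 112 with samples left out. Mutant097 minus wild type called 523 with normexp, 135 without the filter, 831 with trended variance and 97 to 344 with samples left out, and 0 members with quantile normalization, another centring or no filter, 2 with the stricter filter or trended variance, and 0 to 2 with samples left out. Mutant113 minus wild type called 476 without the filter, 1649 and 1 member (Hhip) with trended variance, and 252 to 1342 with samples left out. Letter B minus A called 39 with normexp, 4 with trended variance and 0 to 1 with samples left out. The difference of lesion effects called 287 with normexp, 3 with quantile normalization, 3 with the stricter filter, 193 with trended variance and 0 to 25 with samples left out. Signs changed as follows, and the cause was not tested. With normexp, Sufu was -0.23 in mutant normal skin and -0.21 in hair loss against wild type, Ptch1 0.25 in hair loss, and Gli2 0.073 between the numbers (0.024 with quantile normalization). With the slide row as a block, Ptch1 was -0.040 in mutant normal skin, and Gli3 -0.30 and Gli1 -0.56 in hair loss, against wild type. In that fit, mutant normal skin minus wild type rests on Mutant113 alone, by the layout of the slide. Hair loss minus wild type there has the normal skin gap between Mutant097 and Mutant113 taken off both hair loss arrays. With samples left out, mutant normal skin minus wild type ran from -0.35 to 0.74 for Sufu and -1.27 to 1.62 for Ptch1. Hair loss minus wild type ran from -0.14 to 0.95 for Sufu and -1.64 to 1.25 for Ptch1. Hair loss minus mutant normal skin ran from -0.33 to 0.22 for Gli3, -0.11 to 0.040 and -0.15 to 0.11 for the brighter and dimmer Smo probes and -0.83 to 0.37 for Hhip. Gli2 ran from -0.19 to 0.12 between the numbers, Gli3 from -0.0028 to 0.10 in Mutant113 minus wild type, and the dimmer Smo probe from -0.64 to 0.16 in the difference of lesion effects. The title number model could not be fitted with 1 mean per number or the slide row as a block, and the difference of lesion effects has no value without a hair loss array. Shh and Sufu were too near background for a difference to be sized.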

Other observations

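Scube3, a secreted protein that helps release hedgehog ligand from cells, was above background in the normal skin of Mutant097 alone. Its levels there were -2.90 and -2.92, against -4.63 and -4.18 in the normal skin of Mutant113, -4.66 and -4.01 in hair loss and -4.28 and -4.01 in wild type. By the approximate bound, it was 2.34-fold higher in the normal skin of Mutant097 than in that of Mutant113 and 1.38-fold higher than in wild type. The fitted differences, which rest on values at background, were 1.49 (limma adjusted p = 0.0817) and 1.23 (adjusted p = 0.0807), and neither passed the threshold. It passed the filter through those samples alone and was chosen after its values were seen.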
